A study of Mus musculus with 4 samples.

Results

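The 8 genes described here make long RNAs that are not translated, and all were measured among the 55418 rows of the gene count table. They were taken by name, with earlier results of these data known. Malat1 and Neat1 are nuclear lncRNAs, and Gas5, Snhg1, Snhg3, Snhg8, Snhg12 and Epb41l4aos are host genes of small nucleolar RNAs (snoRNAs). The libraries came from E14 mouse embryonic stem cells (ESCs, strain label 12910la), grown on gelatin in serum with LIF, the cytokine that holds ESCs undifferentiated. Of the 4 libraries, 2 were from WT cells and 2 from Pim3-/- clones. The clones were made with CRISPR/Cas9 and a pair of sgRNAs against exons 4 and 6 of Pim3, a serine/threonine kinase gene. Each clone gave 1 library, and which replicate number stands for which clone is not given in the sources used here. Each group therefore has n = 2, and p-values measure the spread between these cultures and clones only.

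The host genes carry snoRNAs in their introns. After splicing, the debranched intron is trimmed to the snoRNA, which enters a ribonucleoprotein and guides a modification or a cleavage of ribosomal or spliceosomal RNA, while the spliced exons are exported, translated over short frames and often removed by nonsense-mediated decay (NMD). Many host transcripts begin with a C and a run of pyrimidines, the terminal oligopyrimidine (TOP) start shared with ribosomal protein mRNAs. Malat1 gathers in nuclear speckles, bodies rich in splicing factors, and Neat1 is the RNA that builds paraspeckles. Malat1 and the long Neat1 isoform do not end in a poly(A) tail of the usual kind but where RNase P cuts off a tRNA-like RNA, and the new end is held in a triple helix with upstream U-rich stretches.

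The sequences of the starts are shown because they set the host genes beside Malat1. RefSeq start windows (GRCm38.p6) were found for 6 of the 8 genes, and each line gives 10 bases before the start and 20 from it. Capitals mark a tract of 1 C followed by at least 4 letters that are C or T, beginning within 5 bases of the start on the strand of the gene. Such a tract was found for Gas5 (chr1:161035156-161035185, plus strand, at one of its 2 RefSeq starts), Snhg3 (chr4:132353667-132353696, minus strand), Snhg8 (chr3:123508317-123508346, minus strand) and Snhg12 (chr4:132308668-132308697, plus strand). It was not found for Snhg1 (chr19:8723477-8723506, plus strand) or Malat1 (chr19:5802653-5802682, minus strand).
Gas5: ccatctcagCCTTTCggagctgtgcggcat
Snhg3: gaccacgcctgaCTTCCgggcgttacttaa
Snhg8: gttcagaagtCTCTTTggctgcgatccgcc
Snhg12: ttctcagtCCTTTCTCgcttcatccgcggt
Snhg1: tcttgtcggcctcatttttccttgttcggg
Malat1: ggctctgcgtcaggcattcaggcagcgaga

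Of all 32851 RefSeq windows, 6027 (18.3%) held the same tract at the start, and by gene it was 5718 of 27025 (21.2%) against these 4 of 6. Snhg1, whose window has no match, has a T-rich run a few bases downstream of its start. Of protein-coding snoRNA hosts, a list with many ribosomal protein genes, 6 of 29 held it (20.7%), and of other noncoding snoRNA hosts 4 of 13 (30.8%). The tract is a description of letters and not a measured TOP start.

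The 3′ ends of Malat1 and Neat1 are shown because they are what the 2 nuclear RNAs share in sequence. In both, the A-rich strand of the triple helix holds the letters AAAAAGCAAAA, in capitals below, and 49 bases before them are printed. In the GENCODE transcripts the motif ended at base 6691 of 6983 in Malat1-201 (chr19:5795982-5796041, minus strand, GRCm38) and at base 20771 of 20771 in Neat1-201 (chr19:5824708-5824767, minus strand).
Malat1: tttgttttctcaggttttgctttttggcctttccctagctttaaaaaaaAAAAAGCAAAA
Neat1: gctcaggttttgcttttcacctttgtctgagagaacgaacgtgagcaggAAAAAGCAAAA

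Of 141767 annotated transcripts, 618 (0.436%) held the motif anywhere on their strand and 152 (0.107%) held it in their last 400 bases. The longest other run that the 2 stretches share is the U-rich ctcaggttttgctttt, 16 bases, ahead of the A-rich run. The library kit was an mRNA kit, and how it captured these ends was not tested.

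The gene table held between 22029427 and 25668307 counts per library, and 18444 genes, all 8 among them, passed the filter on low counts. Levels are given in CPM, counts per 1e6 counts after edgeR's TMM scaling, with factors of 0.828 and 0.883 for WT and 1.17 for both Pim3-/- libraries. These factors matter here: scaled by library totals instead, the median log2 fold change of all tested genes moved from 0.07 to 0.52, a shift of 0.45 that every fold change carries. For Pim3 the table listed 4392 and 4953 (WT) against 4970 and 4804 counts (libraries labelled Pim3-/-), so its count does not test the labels. Beside the results below, 5 of 5 tested primitive endoderm markers were higher at adjusted p under 0.05, with summed levels of 2.14 and 3.75 CPM in WT against 29.9 and 16.1 CPM in Pim3-/-, and 3 of 8 ESC markers were lower and 1 higher (1 lower and 3 higher with library totals), with summed levels of 9190 to 10200 CPM against 6240 to 6590 CPM. The ESC sum is led by Dppa5a and Pou5f1. Of the 8 ESC markers 4 lay above 0, and their median log2 fold change was -0.23 (0.23 with library totals). The part of these marker changes in the results was not tested, and in bulk RNA fewer cells of a type and less RNA per cell cannot be told apart.

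The 6 host genes lay lower in the Pim3-/- libraries, and 5 of them passed the test, all but Snhg8. Falls were between 1.55-fold and 1.73-fold in mean CPM for those 5. In the other direction 0 of 8 passed, with 0 at an unadjusted p under 0.05 and 0 in the Wald test of DESeq2. At adjusted p under 0.05 in edgeR's quasi-likelihood test, 16.2% of all tested genes were lower and 17.6% higher, so 5 of 8 members lower stands against 16.2%. Because the members were chosen with earlier results known, the 2 shares are a description and not an unbiased comparison. The median log2 fold change of the 8 members was -0.73 (for the hosts alone -0.66) against 0.07 over all tested genes. Among the 7539 tested genes with a mean of 16 to 256 CPM, the range that holds all 8, the median was -0.20 and 28.1% were lower.

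**Figure D1:**
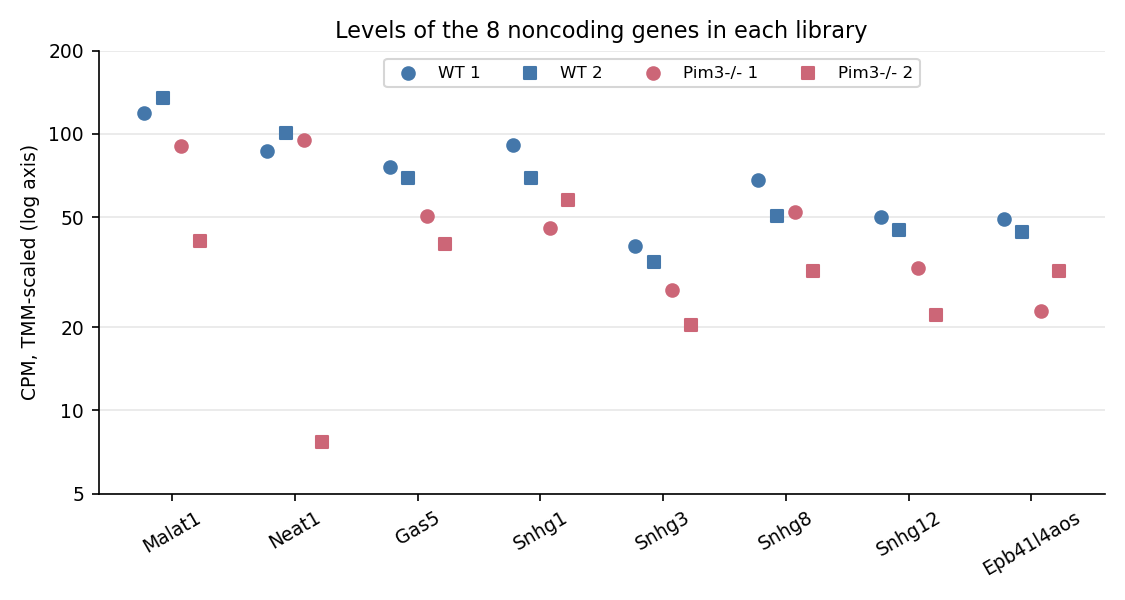
TMM-scaled CPM of the 8 genes in each of the 4 libraries on a log axis, 1 point per library, blue for WT and red for Pim3-/-, circles for replicate 1 and squares for replicate 2. Neat1 of Pim3-/- 2 sits at 7.68 CPM, with the other 3 libraries between 86.7 and 101 CPM, and for Malat1, Gas5, Snhg1, Snhg3, Snhg12 and Epb41l4aos both red points lie under both blue points.

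Gas5, named for its rise in growth-arrested cells and a classical NMD target, lies at chr1:161034422-161038539 on the plus strand. Its counts were 1460 (WT 1), 1574 (WT 2), 1345 (Pim3-/- 1) and 1034 (Pim3-/- 2), which is 76.2, 69.5, 50.4 and 40.1 CPM. Both Pim3-/- values were below both WT values, and the means were 72.9 CPM ± 4.76 (SD, n = 2) and 45.3 CPM ± 7.27 (SD, n = 2). This is a log2 fold change of -0.69 ± 0.18 (SE), and its p after Benjamini-Hochberg adjustment was 0.0241 in edgeR's quasi-likelihood test.

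Snhg1, also known as the U22 host gene, lies at chr19:8723475-8726443 on the plus strand. Counting gave 1745 (WT 1), 1563 (WT 2), 1223 (Pim3-/- 1) and 1481 (Pim3-/- 2), or 91.1, 69.0, 45.8 and 57.5 CPM. The groups did not overlap, but the WT libraries were 1.32-fold apart, the widest spread in WT among the 5 genes that passed. Its log2 fold change was -0.63 ± 0.20 (SE), with adjusted p = 0.0474 in edgeR's test.

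Snhg12 and Snhg3 are near neighbours on chromosome 4, with Trnau1ap between them. Snhg12 (chr4:132308623-132311024, plus strand) had 956, 1020, 876 and 572 counts in WT 1, WT 2, Pim3-/- 1 and Pim3-/- 2, that is 49.9, 45.0, 32.8 and 22.2 CPM. Snhg3 (chr4:132348014-132353686, minus strand) had 750, 778, 728 and 523 counts in the same order, or 39.2, 34.4, 27.3 and 20.3 CPM. In both, Pim3-/- 2 was the lowest library and neither gene's groups overlapped. The log2 fold changes were -0.79 ± 0.22 (SE) for Snhg12, with adjusted p = 0.0284, and -0.63 ± 0.20 (SE) for Snhg3, with adjusted p = 0.0457, in edgeR's test.

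The Snhg3 row may not count Snhg3 alone. Rcc1, the gene of the nucleotide exchange factor of Ran, begins at base 82 of Snhg3 on the same strand, and Gm17300 is annotated on the opposite strand. Gm17300 had 830, 829, 793 and 564 counts and a log2 fold change of -0.63, the same as Snhg3 and as Rcc1 (-0.63, adjusted p = 0.0594 in edgeR's test). The kit is not described as marking strand, and reads from the stretches where these 3 genes overlap cannot be told apart.

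Epb41l4aos (chr18:33794892-33795986, plus strand) starts beside the gene Epb41l4a, which runs the other way. Counts of 941 and 1003 (WT) stood against 610 and 823 (Pim3-/-), or 49.1, 44.3, 22.9 and 31.9 CPM. Here Pim3-/- 1 was the lowest library. Across the groups the log2 fold change of -0.77 ± 0.20 (SE) had adjusted p = 0.0250 in edgeR's test, while Epb41l4a itself was at -0.14 (adjusted p = 0.642), which turned to 0.32 with library totals.

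Snhg8 (chr3:123507552-123508404, minus strand) had 1303, 1143, 1396 and 822 counts in WT 1, WT 2, Pim3-/- 1 and Pim3-/- 2. Its CPM values of 68.0, 50.5, 52.3 and 31.9 overlapped between the groups. The log2 fold change of -0.49 ± 0.26 (SE) did not pass, with an adjusted p of 0.179 in edgeR's quasi-likelihood test.

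The calls of the hosts rested on the scaling. With library totals all 8 log2 fold changes stayed below 0, from -0.50 for Malat1 to -0.03 for Snhg8, but 0 of 8 were called in edgeR's test and 0 had an unadjusted p under 0.05. That stands against 5.92% of all tested genes called lower and 35.8% called higher under this scaling. Both Pim3-/- libraries were below both WT libraries for 6 of the 8 genes with TMM factors, where 34.2% of all tested genes did so, and for 3 of the 8 (Gas5, Snhg12 and Epb41l4aos) with library totals, where 17.2% did so. Leaving out a WT library leaves a single sample in that arm, so calls are not compared there. Without WT replicate 1 and without WT replicate 2, the log2 fold changes were -0.60 and -0.77 for Gas5 and -0.39 and -0.83 for Snhg1. For Snhg8 they were -0.24 and -0.71.

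**Figure D2:**
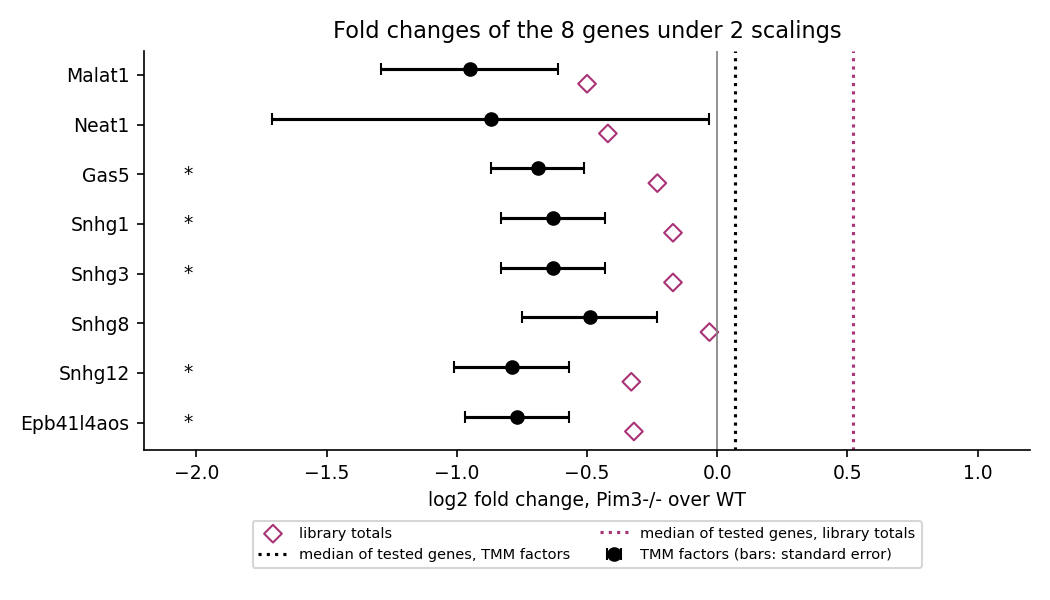
Log2 fold change of Pim3-/- over WT for the 8 genes with TMM factors (filled points, bars are standard errors, n = 2 libraries per group) and with library totals (open diamonds). Asterisks mark adjusted p under 0.05 with TMM factors, and dotted lines give the median of all 18444 tested genes, 0.07 and 0.52. Every symbol lies left of the median of its own scaling.

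Ratios between the 6 hosts within a library do not depend on any scaling. Summed over the hosts, counts were 7155 (WT 1), 7081 (WT 2), 6178 (Pim3-/- 1) and 5255 (Pim3-/- 2). Snhg1 made up 24.4% and 22.1% of the sum in WT and 19.8% and 28.2% in Pim3-/-, and Snhg8 made up 18.2% and 16.1% against 22.6% and 15.6%. Epb41l4aos had 13.2% and 14.2% against 9.87% and 15.7%. For each of these 3 genes the WT shares lay between those of the Pim3-/- libraries, so that the makeup differed more between the clones than between the groups. Gas5, at 19.7% to 22.2%, and Snhg3, at 9.95% to 11.8%, kept near the same share in all 4 libraries.

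Per kilobase of merged exon, Epb41l4aos was the highest of the 8 genes at 114 and 103 CPM per kb in WT, followed by Snhg8 at 79.8 and 59.2 and Snhg3 at 39.7 and 34.8. Next came Snhg1 at 30.7 and 23.2 CPM per kb. The WT means of Snhg12 (19.8), Gas5 (19.4) and Malat1 (18.2) did not differ beyond the spread of their WT libraries. Neat1 was the lowest, at 4.17 and 4.86 CPM per kb over the 20771 bases of its long isoform. The short Neat1 isoform in the annotation, Neat1-202, is 3004 bases long, and if all reads came from it the mean would be 31.2 CPM per kb. The merged exons reach across the whole gene for Snhg1 (2969 bases), Snhg8 (853 bases) and Snhg12 (2402 bases), since some annotated transcripts keep the introns.

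Among the libraries, Neat1 showed the widest difference of the 8 genes, and it lay between the Pim3-/- clones. Neat1 (chr19:5824708-5845478, minus strand) counted 1660 (WT 1), 2285 (WT 2), 2533 (Pim3-/- 1) and 198 (Pim3-/- 2). Those are 86.7, 101, 94.9 and 7.68 CPM. The first Pim3-/- library lay within the WT range and the second was 12.4-fold below it and 12.2-fold below the WT mean. The comparison of the groups gave a log2 fold change of -0.87 ± 0.84 (SE), and an adjusted p of 0.447 in edgeR's quasi-likelihood test. Without Pim3-/- replicate 2 the log2 fold change was 0.02, and without Pim3-/- replicate 1 it was -3.61.

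Malat1 (chr19:5795690-5802672, minus strand) moved the same way to a lesser degree. It had 2279, 3050, 2422 and 1056 counts in WT 1, WT 2, Pim3-/- 1 and Pim3-/- 2, or 119, 135, 90.7 and 41.0 CPM. Both Pim3-/- libraries were below WT, and the clones were 2.22-fold apart where the WT libraries were 1.13-fold apart. The log2 fold change was -0.95 ± 0.34 (SE), and its adjusted p of 0.063 in edgeR's quasi-likelihood test missed the threshold, while the Wald test of DESeq2 gave 0.00904.

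The ratio of Neat1 to Malat1 counts, which no scaling touches, was 0.728 and 0.749 in the WT libraries, 1.05 in Pim3-/- 1 and 0.188 in Pim3-/- 2. The clones thus stood on opposite sides of WT. Relative to the summed hosts, Neat1 was at 0.232, 0.323, 0.410 and 0.0377 and Malat1 at 0.319, 0.431, 0.392 and 0.201 in the same order of libraries.

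Other rows of the table that lie inside Neat1 and Malat1 had the same pattern. Gm28006, Gm27505 and Gm27533 are short annotated stretches 442, 732 and 1042 bases from the Neat1 start, on its strand and within the short isoform. Gm27533 had 223, 356, 422 and 32 counts, Gm27505 128, 212, 308 and 13, and Gm28006 134, 256, 324 and 21. In all 3 the Pim3-/- 2 library was the low one, so the low count was also seen on single stretches of the 5′ part. Inside Malat1, Gm27694 had 172, 224, 132 and 58 counts. Gm37376, annotated on the strand opposite Malat1, had 355, 468, 300 and 108 counts, which without strand cannot be told apart from reads of Malat1.

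Malat1 and Neat1 are separated by 22035 bases, and the genes around them did not share the difference between the clones. On the log2 scale, Pim3-/- 2 against Pim3-/- 1 was -3.63 for Neat1 and -1.15 for Malat1. Over the other 16 tested genes within 100 kb of the pair it ranged from -0.96 for Tigd3, with 127 and 63 counts in the clones, to 1.74 for Slc25a45, with 22 and 71. Frmd8os, which starts 145 bases from Neat1 on the opposite strand, had 103, 79, 106 and 98. The 16 genes were looked up after the Neat1 values were seen.

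**Figure D3:**
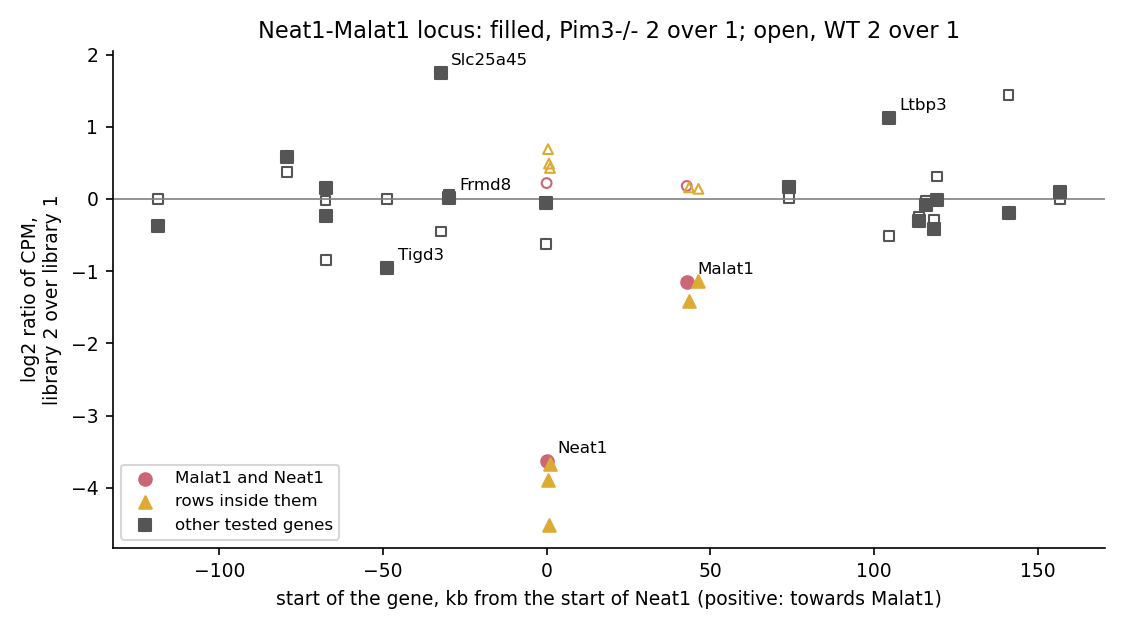
Log2 ratio of CPM between the 2 libraries of a group for tested genes around Neat1 and Malat1, by distance in kb of the start of the gene from the start of Neat1. Filled symbols give Pim3-/- 2 over Pim3-/- 1 and open symbols WT 2 over WT 1, with triangles for rows inside Neat1 or Malat1. Neat1 (-3.63), Malat1 (-1.15) and the rows inside them lie lowest, while the grey filled squares stay between -0.96 and 1.74.

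The gap between the clones was rare at this level of expression. Of 3858 tested genes with a mean of at least 50 CPM, 3 were at least as far below in Pim3-/- 2 as Neat1, Neat1 included, and none was as far above. The other two were Txnip and Gm15441. The same 2 genes were nearest to Neat1 by the root mean square distance between centred log2 CPM over the 4 libraries. The distances were 0.237 for Gm15441 and 0.521 for Txnip. The gap between the clones largely sets this distance, so it is not a separate observation. Txnip, which binds thioredoxin, curbs glucose uptake and is itself switched on by glucose through the MondoA and ChREBP factors, had 822, 883, 652 and 28.9 CPM. Gm15441 had 171, 236, 183 and 11.4 CPM. It is annotated on the strand opposite Txnip and spans it (chr3:96555765-96566801 around chr3:96557957-96561883), so these 2 rows may hold shared reads and cannot be counted as separate.

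For Malat1 the nearest genes were Psph, which makes serine from phosphoserine, at a distance of 0.045, and Nars, the asparaginyl-tRNA synthetase, at 0.049. Psph had 198, 213, 140 and 63.2 CPM and Nars 353, 380, 271 and 127 CPM. For Snhg1 they were Rpl22, a ribosomal protein gene, and Zfas1, another snoRNA host, at 0.009 and 0.027. No member was among the nearest pair of another member. The remaining pairs were Arpc4 and Tmem234 for Gas5, Cox17 and Mrpl57 for Snhg3, Gfer and Chchd10 for Snhg8, Gtf2f2 and Fh1 for Snhg12, and Tcp1 and Echs1 for Epb41l4aos. With only 4 libraries such likeness is a description of 4 values.

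Inside the 6 hosts the annotation places 25 snoRNA genes, of which 24 passed the filter. Mature snoRNAs are short and have no poly(A) tail, so counts on these rows can also be host reads that run through an exon, a retained intron or unspliced RNA, and the sources do not tell these apart. With TMM factors, 19 of the 24 were below 0 on the log2 scale and 1 was called, Snora61 in Snhg12.

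The sequences that these results turn on are given from the GENCODE transcripts (GRCm38). Snora61 (chr4:132310240-132310369, plus strand) is an H/ACA snoRNA, the class that guides pseudouridylation, and its ACA box 3 bases from the end is in capitals. Snord47 of Gas5 (chr1:161038082-161038158, plus strand) and Gm25855 of Snhg1 (chr19:8723993-8724064, plus strand) are box C/D snoRNAs, the class that guides 2′-O-methylation, with the C box TGATGA and the D box CTGA in capitals.
Snora61: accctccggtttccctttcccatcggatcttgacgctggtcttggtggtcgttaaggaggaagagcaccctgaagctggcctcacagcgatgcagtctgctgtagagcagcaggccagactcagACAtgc
Snord47: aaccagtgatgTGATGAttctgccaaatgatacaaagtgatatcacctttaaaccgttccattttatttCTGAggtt
Gm25855: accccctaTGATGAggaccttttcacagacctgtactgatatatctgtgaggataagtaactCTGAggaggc

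Among 1483 annotated snoRNA symbols, 20.4% held both a C box within 15 bases of the 5′ end and a D box within 15 bases of the 3′ end, and 17.9% held ACA at that place. Of the 22 snoRNA genes inside Gas5, Snhg1, Snhg3, Snhg8 and Snhg12 whose name is annotated once, 12 held both C and D boxes and 4 held ACA.

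Snora61 counts were 241 and 245 (WT) and 146 and 110 (Pim3-/-), or 12.6, 10.8, 5.47 and 4.27 CPM. The groups did not overlap, and the log2 fold change was -1.26 ± 0.26 (SE), with adjusted p = 0.0115 in edgeR's test, beside -0.79 for its host Snhg12. All 4 snoRNA rows of Snhg12 were below 0. Summed they had 417, 456, 279 and 218 counts, 43.6% and 44.7% of the Snhg12 count in WT and 31.8% and 38.1% in Pim3-/-.

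In Gas5 all 9 snoRNA rows were below 0 with TMM factors, and 0 were called in edgeR's test (3 at an unadjusted p under 0.05, 0 by DESeq2). With library totals Gm22357 turned to 0.28. Snord47, with 25, 20, 10 and 10 counts, came nearest at a log2 fold change of -1.50 ± 0.50 (SE) and adjusted p = 0.0509 in edgeR's test. Summed, the 9 rows had 864, 1032, 918 and 568 counts, between 54.9% and 68.3% of the Gas5 count in every library.

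In Snhg1 most snoRNA rows lay above 0 while the host lay below. Of 7 tested rows, 5 were above 0 with TMM factors, and 0 were called in edgeR's test (1 at an unadjusted p under 0.05, 0 by DESeq2). Gm25855, the first in the gene, counted 30 and 42 (WT) and 117 and 65 (Pim3-/-), at a log2 fold change of 1.01 ± 0.40 (SE) and adjusted p = 0.0849. With library totals Gm25855 was called higher, at a log2 fold change of 1.46 (adjusted p = 0.0214 in edgeR's test). Snord22, the last in the gene, had 527, 459, 510 and 360 counts, at -0.53 on the log2 scale (adjusted p = 0.122 in edgeR's test). Over all 8 rows the sums were 729, 666, 875 and 746 counts, which is 41.8% and 42.6% of the Snhg1 count in WT and 71.5% and 50.4% in Pim3-/-. Leaving out Snord22, the row with the most counts, a choice made after the values were seen, the other 7 rows summed to 202 and 207 counts (WT) against 365 and 386 counts (Pim3-/-). That was 11.6% and 13.2% of the Snhg1 count in WT and 29.8% and 26.1% in Pim3-/-. This ratio needs no scaling and its groups did not overlap. No exact permutation test over 4 libraries can pass the threshold, and the ratio was not tested.

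**Figure D4:**
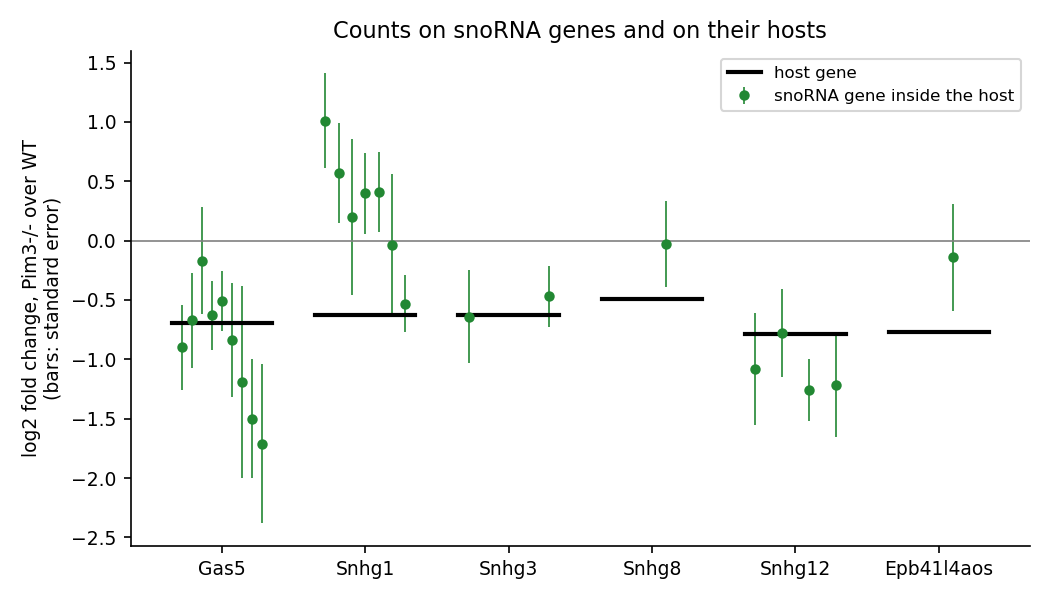
Log2 fold change of Pim3-/- over WT for each tested snoRNA gene inside the 6 hosts (green points in 5′ to 3′ order along the host, bars are standard errors, n = 2 libraries per group) and for the host itself (black line). In Snhg1, 5 of 7 points lie above 0 over a host line at -0.63, while in Gas5 and Snhg12 all points lie below 0.

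Snhg3 carries 2 copies of Snora73, also known as U17, which acts in cleavage of the ribosomal RNA precursor. They are printed to show how alike they are, with capitals at the 7 of 205 positions where they differ (Snora73a at chr4:132352775-132352979 and Snora73b at chr4:132352322-132352526, minus strand).
Snora73a: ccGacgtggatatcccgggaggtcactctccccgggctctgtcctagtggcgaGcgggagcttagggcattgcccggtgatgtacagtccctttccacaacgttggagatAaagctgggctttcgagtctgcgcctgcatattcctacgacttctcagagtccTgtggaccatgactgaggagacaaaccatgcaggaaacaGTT
Snora73b: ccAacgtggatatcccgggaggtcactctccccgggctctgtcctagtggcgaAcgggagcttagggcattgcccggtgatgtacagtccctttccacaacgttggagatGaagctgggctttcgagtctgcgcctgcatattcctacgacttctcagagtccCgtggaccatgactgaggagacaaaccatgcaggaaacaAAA

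Snora73a had 174, 181, 202 and 86 counts and Snora73b 370, 347, 399 and 258, and at 96.6% identity reads may have been split between them or dropped. Neither was called. Snora24 in Snhg8, with 62, 47, 67 and 69 counts, was at a log2 fold change of -0.03, and Gm23639 in Epb41l4aos, with 19, 30, 23 and 32 counts, at -0.14, both uncalled and both above 0 with library totals.

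The gene lists around the members were counted with the same test and scaling. Of all tested genes 16.2% were called lower and 17.6% higher (5.92% and 35.8% with library totals). At 16 to 256 CPM 28.1% were lower. The share lower was 25.0% for other noncoding hosts, 29.4% for NMD and exon junction factors and 27.3% for other lncRNAs, near that 28.1%. It was 64.7% to 69.2% for the protein-coding host, snoRNA protein, nuclear exosome and RNase P lists. Many protein-coding hosts lay above 256 CPM, where no share was counted. With a WT library left out that arm holds a single sample, so calls of the lists are not compared there. The other noncoding snoRNA hosts gave a mixed picture. Of 12 tested, 3 were called lower and 0 higher in edgeR's test (0 higher at an unadjusted p under 0.05 and 0 by DESeq2), and their median log2 fold change was -0.40. With library totals the calls turned to 1 lower and 3 higher and the median to 0.06. Dancr, which holds back differentiation in several lineages, fell from 18.2 and 13.3 CPM to 6.22 and 5.86 CPM (log2 fold change -1.38 ± 0.25 (SE), adjusted p = 0.00815 in edgeR's test). Snhg20 fell from 55.3 and 45.8 to 16.7 and 31.1 CPM, and Zfas1 from 100 and 76.3 to 52.5 and 62.6 CPM. Both calls ended with library totals, at adjusted p = 0.103 and 0.534 in edgeR's test, and that of Zfas1 also with at least 10 counts in every library (0.0741). Snhg5, at 78.0, 73.0, 61.6 and 73.0 CPM, Snhg6, at 50.8, 45.2, 32.7 and 47.5 CPM, and Snhg17, at 34.7, 37.8, 42.9 and 44.1 CPM, overlapped between the groups or lay slightly higher, and were not called.

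Of 39 protein-coding snoRNA hosts, mostly ribosomal protein and translation factor genes, 26 were called lower and 1 higher, with a median log2 fold change of -0.82 (-0.36 with library totals). Hspa8, the constitutive Hsc70 chaperone, fell from 4090 and 3900 CPM to 1520 and 1150 CPM. Nop56, a core protein of box C/D particles, fell from 702 and 653 to 334 and 220 CPM, Eif4a1 from 3760 and 3450 to 1810 and 1540 CPM, and Wdr43 from 208 and 212 to 106 and 91.0 CPM. Eef2, the elongation factor of translocation, was the exception and rose from 2600 and 2790 to 4010 and 5490 CPM (log2 fold change 0.82, adjusted p = 0.0434 in edgeR's test). With DESeq2 size factors in edgeR's test Eef2 was not called (adjusted p = 0.0615). With library totals 5 of the 39 were lower and 2 higher.

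**Figure D5:**
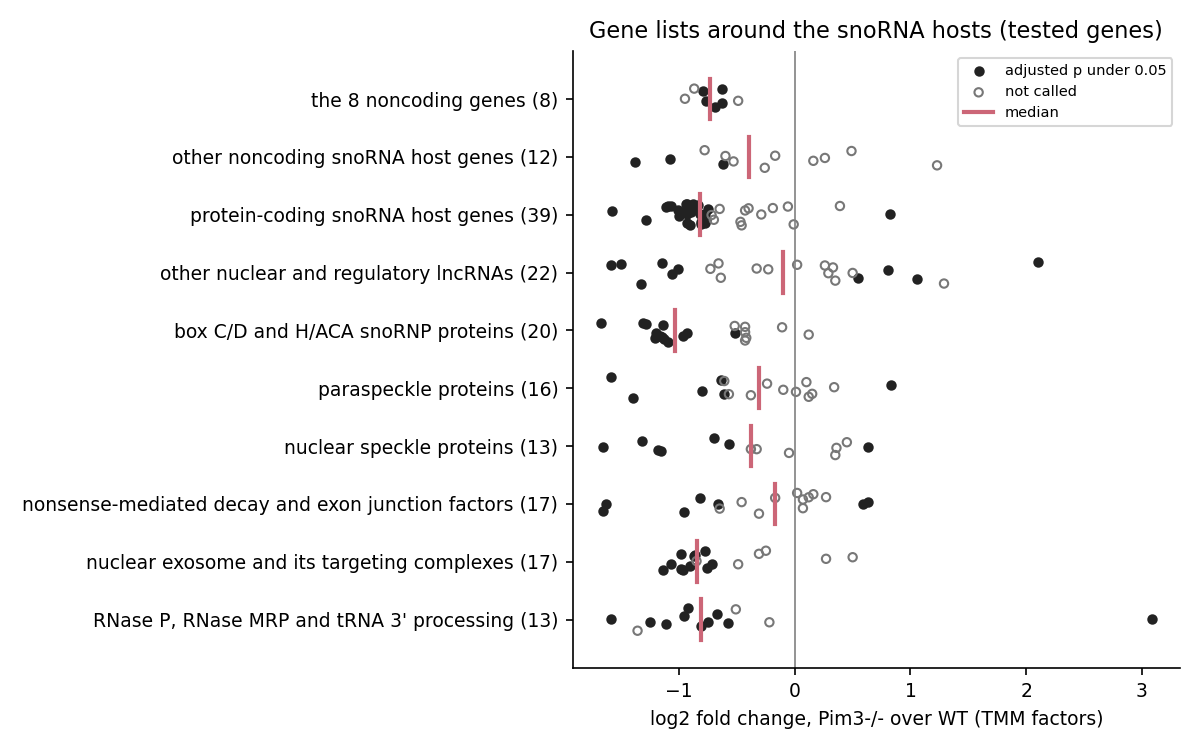
Log2 fold change of Pim3-/- over WT for the 8 genes and for tested genes of 9 lists, 1 point per gene, filled where adjusted p was under 0.05, with a red bar at the median of each list. The medians of the protein-coding hosts (-0.82), snoRNP proteins (-1.03), nuclear exosome (-0.85) and RNase P list (-0.81), drawn with TMM factors, lie left of the others, and Eef2 and Rpph1 lie on the right.

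The proteins that make and carry snoRNAs lay lower as well. Of 20 tested genes for box C/D and H/ACA core proteins and assembly factors, 13 were called lower and 0 higher in edgeR's test (0 higher at an unadjusted p under 0.05 and 0 by DESeq2), with a median log2 fold change of -1.03 (-0.58 with library totals). Nhp2, an H/ACA core protein, fell from 601 and 483 CPM to 203 and 136 CPM (log2 fold change -1.68 ± 0.25 (SE), adjusted p = 0.00534 in edgeR's test). Snu13, which binds the kink of box C/D RNAs, fell from 505 and 423 to 211 and 164 CPM, and Nop10 from 297 and 250 to 156 and 81.0 CPM, a call that ended with library totals (adjusted p = 0.0652 in edgeR's test). With library totals 8 of 20 were still lower and 1 was higher.

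Of the genes that process or remove such RNAs, those of the nuclear exosome and its targeting complexes gave 11 of 17 lower and 0 higher in edgeR's test (1 higher at an unadjusted p under 0.05 and 0 by DESeq2), with a median of -0.85 (-0.40 with library totals). Exosc8 fell from 174 and 147 to 79.6 and 66.3 CPM and Exosc10, the nuclear 3′ exonuclease, from 171 and 177 to 98.8 and 77.8 CPM. With library totals 1 of the 17 was lower and 2 were higher, and Exosc10 was not called (adjusted p = 0.0569 in edgeR's test). The NMD and exon junction factors were spread more widely, 5 of 17 lower and 2 higher with a median of -0.17. With library totals 2 were lower and 5 higher, and the median turned to 0.28. Magoh and Magohb, paralogs that encode the same core subunit of the exon junction complex, had log2 fold changes of -1.63 and -1.66, whereas Smg6, the endonuclease of NMD, rose by 0.63 and Casc3 by 0.59, calls that ended without a filter on low counts (adjusted p = 0.0542 and 0.0645 in edgeR's test). Their near-identical coding sequences leave the split of reads between Magoh and Magohb uncertain.

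The protein partners of Neat1 and Malat1 moved in both directions. Of 16 paraspeckle protein genes, 5 were called lower and 1 higher, with a median of -0.31. With library totals 2 were lower and 5 higher, and the median was 0.14. Nono, an essential paraspeckle protein, fell from 425 and 475 CPM to 302 and 276 CPM, and its relative Pspc1 rose from 45.0 and 45.2 to 77.6 and 83.4 CPM. The Nono call ended with library totals (log2 fold change -0.19, adjusted p = 0.448 in edgeR's test) and with at least 10 counts in every library (adjusted p = 0.0522). Sfpq, the third of this family, stayed at 215, 222, 233 and 175 CPM and was not called. Neither Nono nor Pspc1 showed the gap that Neat1 had between the clones. Tardbp fell from 571 and 568 to 205 and 173 CPM.

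Of 13 nuclear speckle genes, 6 were called lower and 1 higher, with a median of -0.38. With library totals 3 were lower and 4 higher, and the median was 0.06. Srsf7 (320, 300, 98.1 and 98.2 CPM), Srsf3 (369, 361, 174 and 119 CPM), Clk1 (110, 117, 52.9 and 48.2 CPM) and Clk4 (52.0, 45.7, 14.5 and 28.6 CPM) were lower, genes that encode splicing factors and the kinases that phosphorylate them. Srrm2, a scaffold of speckles, rose from 194 and 236 to 332 and 331 CPM. The call of Clk4 ended with library totals (adjusted p = 0.0762 in edgeR's test) and that of Srrm2 without a filter on low counts (0.0564).

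RNase P cuts the 3′ ends of Malat1 and Neat1. Of 13 tested genes for RNase P, RNase MRP and tRNA 3′ processing, 9 were called lower and 1 higher, with a median of -0.81. With library totals 3 were lower and 1 higher, and the median was -0.36. Pop5 fell from 106 and 94.2 to 45.6 and 38.4 CPM and Pop1 from 70.3 and 80.6 to 36.1 and 13.9 CPM. Rpph1, the RNA of RNase P, was the one that rose, from 4.60 and 1.55 to 41.3 and 10.5 CPM (log2 fold change 3.09 ± 0.70 (SE), adjusted p = 0.0155 in edgeR's test). It has no poly(A) tail, and what share of it an mRNA kit keeps in each library is not known.

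Genes beside the hosts did not form 1 pattern. Wdr74, next to Snhg1, was lower (log2 fold change -1.17, adjusted p = 0.00893 in edgeR's test), as were Taf12 and Trnau1ap on either side of Snhg12 (-1.06 and -1.14, adjusted p = 0.00537 and 0.00624). Phactr4, next to Snhg3, rose by 0.67 on the log2 scale (adjusted p = 0.0285). Slc3a2, which starts 106 bases from Snhg1 in the other direction, was at -0.18 (adjusted p = 0.58), and at 0.27 with library totals.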

How the data were processed

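RNA-seq libraries of 2 WT and 2 Pim3-/- ESC samples were analysed. The authors deposited raw counts per gene. The methods of the study name Cutadapt, Hisat2, mm10 and Ensembl genes, whereas the processing notes of the submitters name Trim Galore, STAR, featureCounts and GRCm38, and which of them made the deposited counts is not known. The treatment of strand and of reads with several locations is not given in the sources used here. TE counts were not used, and 2 genes beside the members are not reported here. The counts per library given above hold every row. The TMM-scaled CPM and the edgeR fits, that with library totals included, use sums over the genes that passed the filter.

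Genes were kept by filterByExpr (minimum count 10, minimum total 15), scaled by TMM factors and compared with the quasi-likelihood test of edgeR 4.0.16 in R 4.3.3, with Benjamini-Hochberg adjustment over all 18444 tested genes. CPM are TMM-scaled, and SD is over the 2 libraries of a group. SE is the absolute log2 fold change divided by the square root of the F statistic of edgeR's test. It therefore restates that test. Depth limits each value through counting error, and a count of 0 allows up to 3 counts, 0.157 CPM in WT replicate 1. The test was checked on simulated counts. Genes were located in GENCODE vM21 (GRCm38), and starts were taken from RefSeq. Figures were drawn with matplotlib 3.10.9.

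Members and lists were chosen with earlier results of these data known. Named genes are the members, neighbours and snoRNA genes inside them, up to 4 genes a direction in each list (largest log2 fold change, adjusted p under 0.05, mean of at least 5 CPM) and for each member the 2 most similar genes with a mean of at least 50 CPM. Others are named as examples chosen after their values were seen. Alternatives were DESeq2 size factors, library totals, no filter, a floor of 10 counts in each library, DESeq2 1.42.0 with its Wald test, a replicate block and each library left out.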

Additional observations from a re-analysis of the deposited data

How the results depend on the processing

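With TMM factors 5 of 8 members were called lower and 0 higher. The count was 5 with DESeq2 size factors, 6 without a filter and 6 by the Wald test of DESeq2 (Malat1 in addition in both), 3 with at least 10 counts in every library (Gas5, Snhg12 and Epb41l4aos) and 0 with library totals. It ranged from 0 without WT replicate 1 or WT replicate 2 to 8 without Pim3-/- replicate 1, with 6 without Pim3-/- replicate 2. Without 1 library an arm holds a single sample, which is assumed to vary like the other group, and without a Pim3-/- library the estimated spread was common to all genes, so those p-values are not comparable. No alternative called a member higher. Log2 fold changes ranged from -3.61 to 0.02 for Neat1, from -1.63 to -0.48 for Malat1 and below 0 throughout for the hosts, from -1.10 to -0.33 for Snhg12 and from -0.89 to -0.03 for Snhg8.

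Over all genes, library totals gave 6606 higher and 1092 lower, against 3246 and 2987. Leaving out 1 library gave 25 to 5383 higher and 5 to 5139 lower. Same-numbered libraries shared almost no deviation (correlation 0.0306), so no pairing by number was seen, though 2 libraries per group cannot exclude one. With the replicate block 7 of 8 members were lower, all but Neat1, and 3403 genes were higher and 3272 lower. With the block 11 of 39 protein-coding hosts were called lower, against 26 without it, and 0 higher (Eef2 at adjusted p = 0.135 in edgeR's test), and Nono at 0.052. With at least 10 counts in every library 2 primitive endoderm markers were called.

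Some uncalled genes changed sign. With library totals Frmd8os was at 0.27, Slc3a2 at 0.27, Epb41l4a at 0.32, Gm22357 at 0.28, Gm23246 at 0.41, Snora24 at 0.43, Gm23639 at 0.30 and Pim3 at 0.19. With at least 10 counts in every library Gm23246 was at 0.04 and Snora24 at 0.05. With 1 library left out the ranges were -0.48 to 0.18 for Frmd8os, -0.54 to 0.11 for Slc3a2, -0.46 to 0.13 for Epb41l4a, -0.74 to 0.23 for Gm22357, -0.81 to 0.81 for Gm24453, -1.10 to 0.57 for Gm23246, -0.33 to 0.34 for Snora24 and -0.43 to 0.09 for Gm23639. The cause of these changes was not tested.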

Other observations

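Other nuclear and regulatory lncRNAs went in both directions. Of 22 tested, 6 were called lower and 4 higher in edgeR's test, with a median log2 fold change of -0.10. With library totals 3 were lower and 6 higher, and the median was 0.35. Platr10 and Platr3, from a set of lncRNAs named for their link to pluripotency, fell from 160 and 154 to 53.7 and 50.1 CPM and from 11.9 and 10.7 to 4.42 and 5.74 CPM. Platr27 was lower too, with a log2 fold change of -1.50 (adjusted p = 0.00786 in edgeR's test). Rian and Mirg, which are expressed with Meg3 from the imprinted Dlk1-Dio3 region and carry snoRNAs and miRNAs, had 214, 241, 63.7 and 118 CPM and 23.2, 19.1, 8.99 and 12.1 CPM. In Meg3 itself, at 127, 133, 59.1 and 108 CPM, the log2 fold change of -0.64 was not called (adjusted p = 0.105 in edgeR's test). In all 3 of these neighbours Pim3-/- 1 was the lower clone. Tug1 rose from 6.48 and 8.66 to 13.0 and 18.6 CPM and Firre, an X-linked nuclear lncRNA, from 39.1 and 44.9 to 62.4 and 60.2 CPM. The call of Platr3 ended with library totals (adjusted p = 0.0649 in edgeR's test) and that of Firre without a filter (0.073).

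Of 14 tested genes in a list of RNAs without a poly(A) tail, histone genes among them, 1 was called lower and 2 higher. Rn7sk, the RNA that restrains P-TEFb, fell from 21.3 and 12.3 to 6.67 and 6.09 CPM. Besides Rpph1, Terc, the telomerase RNA, was the one that rose, from 0.313 and 0.177 to 2.81 and 0.659 CPM. The summed level of the list was 142 and 113 CPM in WT and 179 and 107 CPM in Pim3-/-. The histone gene Hist1h1c held a large part of it, 63.7 and 59.1 CPM in WT and 50.5 and 56.2 CPM in Pim3-/-. Whether the histone RNAs counted here lacked a tail was not tested.

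Genes with the tract at a RefSeq start were called lower about as often as genes without it. Of 2859 tested genes with it, 18.3% were called lower, and of 9183 without it, 17.3%. Only 20.7% of the protein-coding snoRNA hosts with a window held the tract, near the 21.2% of all genes. The letters thus do not pick out TOP genes, and whether TOP starts go with the falls was not tested.

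In the other marker lists, 1 of 3 fibroblast and 2 of 4 trophoblast markers were called higher in edgeR's test, Eomes and Ascl2 among the latter. Of 3 neuroectoderm markers 0 were called by edgeR. At an unadjusted p under 0.05, 1 of them was lower and 2 higher, and DESeq2 called 1 lower and 0 higher. Of 3 mesoderm markers 0 were called by edgeR, 0 by DESeq2 and 0 at an unadjusted p under 0.05.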
